A study of Mus musculus with 10 samples.

Results

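The genes described here encode the constitutive proteasome, its assembly chaperones named as Psmd genes and its activators. They were chosen by name: every protein-coding gene of the count table whose symbol is Psma, Psmb, Psmc, Psmd or Psme followed by a number, without the cytokine-induced catalytic subunits Psmb8, Psmb9 and Psmb10. The rule found 40 genes of the 54532 in the table, and 38 of them passed the filter on low counts and were tested. The other members were Psma8, an alpha-type subunit known from testis, with 57 reads over the 5 saline libraries and 48 over the 5 LPS libraries, and Psmb11, the thymus-specific beta subunit, with 0 reads in all libraries.

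The libraries were made from whole hearts of C57BL/6 mice, 8 weeks old, and RNA was measured by sequencing on the Illumina platform. Heart libraries of mice injected with saline (n = 5) were compared with those of mice taken 24 h after LPS (n = 5). LPS is lipopolysaccharide, the endotoxin of Gram-negative bacteria, given to mice as a model of sepsis. Both groups are of the same strain and carry no labelled allele. The labels number the libraries within each group and do not say if a library is of a single mouse or of a pool. No sex, dose or batch is stated in the labels. The study asked how the septic heart differs and is titled for LPS signalling and autophagy in heart muscle cells, so the proteasome, the other main route of protein breakdown, is examined here beside its stated subject.

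The proteasome is a barrel-shaped protease. Its core particle is built of stacked rings of alpha subunits, which form the gate, and of beta subunits, of which Psmb5, Psmb6 and Psmb7 carry the constitutive proteolytic sites. A regulatory particle, made of a base with ring-forming ATPases and of a lid, receives ubiquitin-tagged proteins, unfolds them and feeds them into the core. Other caps, the activators encoded by Psme genes, open the gate without ATP, and in the heart the proteasome removes damaged and short-lived proteins of the contractile cells.

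Total counts per library ranged from 14607969 to 17012372, and the members took between 0.303% and 0.347% of them. Levels are given as CPM, read counts scaled by the effective library size, which is the count over tested genes times TMM factor. Markers of the labelled tissue were present: the 10 cardiomyocyte markers summed to between 51467 and 62419 CPM in saline and between 57641 and 61669 CPM in LPS libraries. The 6 endothelial markers all fell, from 1221 to 1413 CPM in saline replicates 1 to 4 and 809 CPM in saline replicate 5 to between 471 and 598 CPM in LPS libraries. One cardiomyocyte marker rose. Of the macrophage markers 1 of 6 fell (173 to 254 CPM in saline, 142 to 203 CPM in LPS), of the fibroblast markers 1 of 6 and of the mural markers 1 of 5. Of the neutrophil markers 1 of 3 tested rose, with sums of 0.954 to 2.23 CPM in saline replicates 1 to 4, 16.3 CPM in saline replicate 5 and 6.80 to 28.1 CPM in LPS libraries. The 3 erythroid markers and the 1 lymphocyte marker tested did not pass. In libraries of whole hearts, fewer cells of a type and less RNA per cell cannot be told apart, and the part of these markers in the members' results was not tested.

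Before the members are described, 2 libraries need naming. Saline replicate 5 stood apart from the other saline libraries: 10 interferon-stimulated genes, of which 7 rose, summed to between 138 and 504 CPM in saline replicates 1 to 4, to 3671 CPM in saline replicate 5 and to between 6550 and 12551 CPM in LPS libraries. It was the highest saline library in 17 of the 38 tested members, including all 4 activators. LPS replicate 5 was low in short transcripts. Its median log2 deviation from the other LPS libraries was -0.40 over 734 genes with a median transcript length up to 1000 bp and 0.17 over 2782 genes longer than 4000 bp. LPS replicate 1 ran the other way, from 0.29 to -0.08. Among saline libraries, replicates 1 and 5 were at -0.14 and -0.11 in the shortest class and at 0.04 and 0.07 in the longest. The median transcript length was 859 bp in the beta ring, 1165 bp in the alpha ring, 1561 bp in the lid and 1614 bp in the base ATPases. The part of transcript length in the results of single members was not tested.

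**Figure D1:**
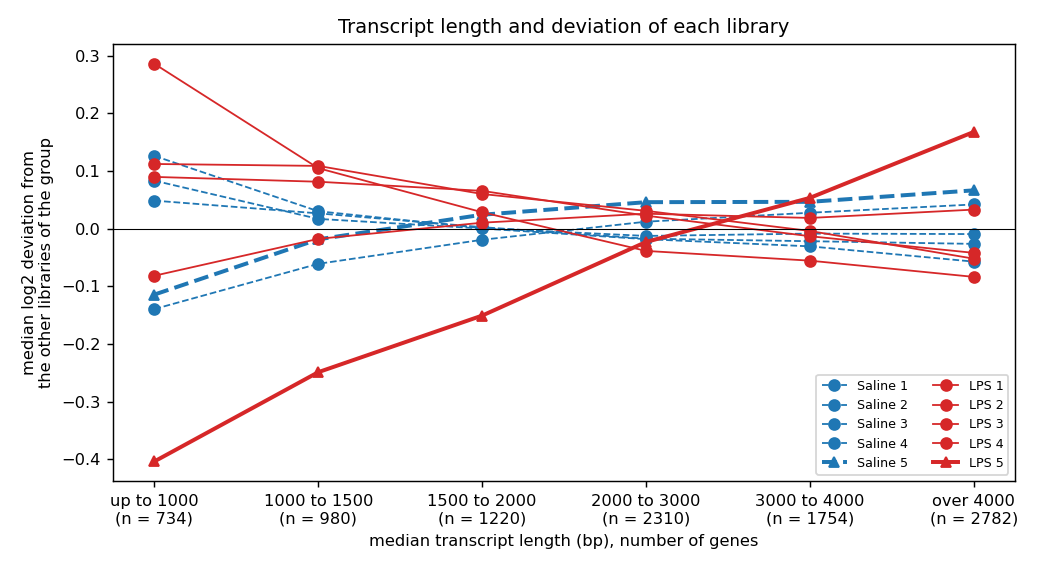
Median log2 deviation of each library from the other libraries of its group (y axis), over genes grouped by the median length of their transcripts in bp (x axis, number of genes below each class, genes averaging 5 CPM or more). Dashed blue lines are saline and solid red lines LPS libraries, with replicate 5 of each group as triangles and a thick line. LPS 5 runs from -0.40 in the shortest class to 0.17 in the longest.

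With TMM scaling, LPS hearts held more RNA of many proteasome genes. Of the 38 tested members 15 rose, 1 fell and 22 did not pass the threshold (edgeR's quasi-likelihood test, adjusted p under 0.05 over 13864 tested genes). Among all tested genes 18.9% rose and 21.0% fell. The median log2 fold change was 0.20 over the members and -0.02 over all tested genes, and 34 of the 38 members had a value above 0. In 12 members all LPS libraries lay above all saline libraries, against 14.3% of all tested genes, and in 1 member, Psmd5, all lay below, against 14.1%. Since the members were named with earlier results of these data known, these counts are a description.

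The direction depended on how libraries were scaled. The median of all tested genes was -0.18 with upper quartile scaling and -0.30 with scaling by total count, and the members' medians moved along, to 0.04 and -0.07. Measured from the median of all genes, the members' median was 0.23 higher under TMM, upper quartile and total count scaling. A change of scaling moves the log2 fold changes of all genes by nearly the same amount. This value could therefore hardly differ between scalings, and its agreement is no test of the members. With upper quartile scaling 6 members rose and 2 fell, where 14.4% of all genes rose and 31.8% fell. With total count scaling 4 rose (Psma3, Psma5, Psme1 and Psme2) and 4 fell (Psmb1, Psmc1, Psmd5 and Psmd9), where 12.3% of all genes rose and 41.6% fell. Psma3, Psma5, Psme1 and Psme2 rose, and Psmd5 fell, in all 20 fits made.

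Leaving out single libraries moved the number of rising members between 11 and 19. Without LPS replicate 5, 19 of 39 tested members rose and 1 fell, where 19.1% of all genes rose and 21.9% fell. Without saline replicate 5, 16 of 38 rose and 1 fell, where 21.0% of all genes rose and 22.9% fell. Of the 16 members called, 11 kept their call in each fit without 1 library. The exceptions were Psma4, Psmb7, Psmc4, Psmd2 and Psmd14.

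**Figure D2:**
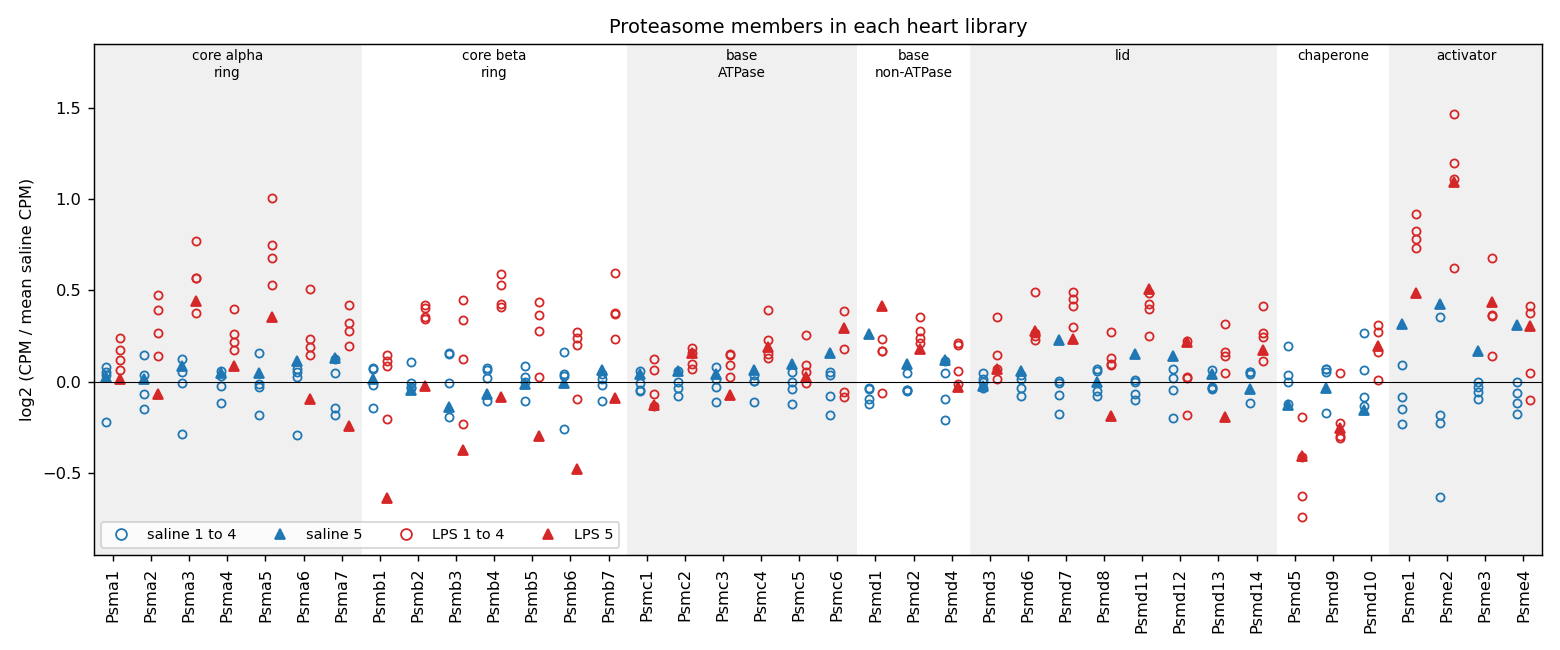
Level of each of the 38 tested members in every library, as log2 of its CPM over the mean saline CPM (y axis, TMM scaling), with genes grouped by role along the x axis. Blue symbols are saline and red symbols LPS libraries, and triangles mark replicate 5 of each group. LPS 5 is the lowest LPS library in all 7 beta ring genes, and Psme2 is the member with the largest difference.

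**Figure D3:**
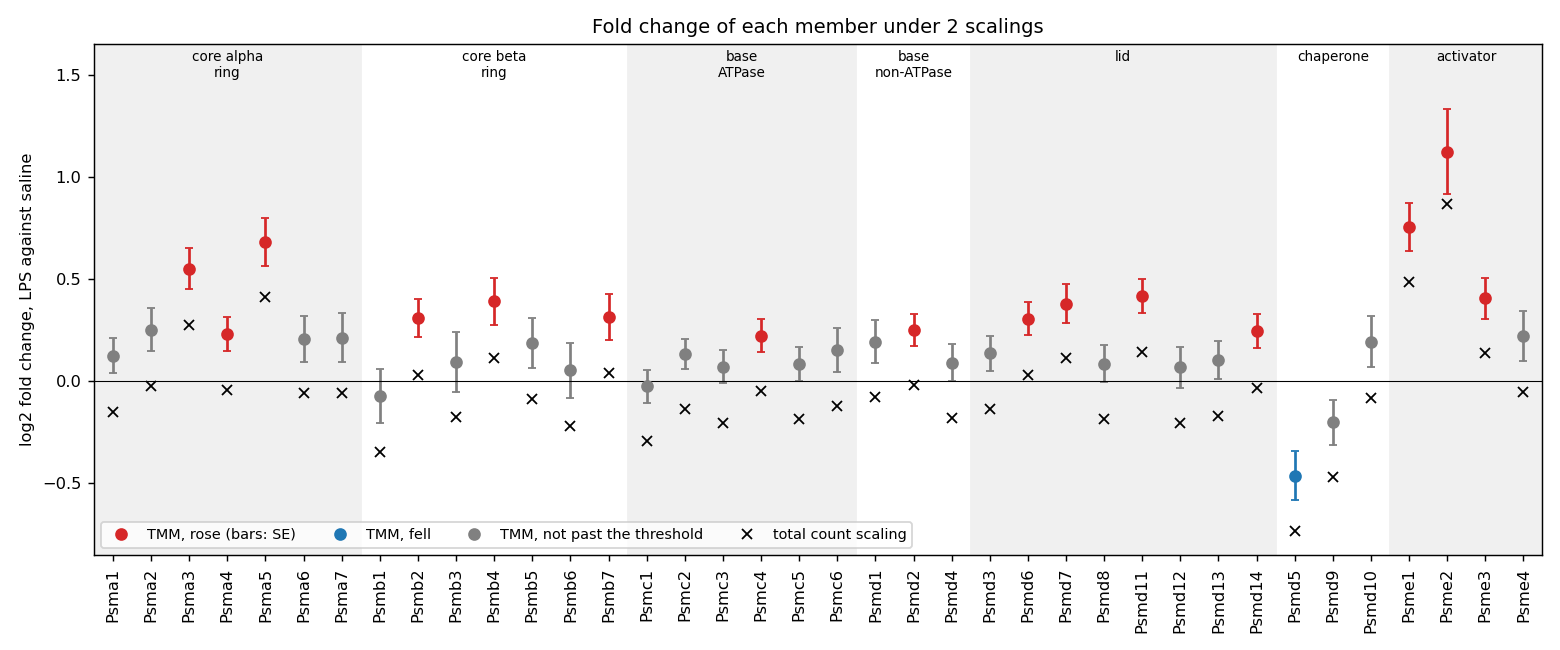
Log2 fold change of each tested member, LPS against saline (y axis), by role along the x axis. Circles with SE bars are the edgeR values under TMM scaling (red, rose; blue, fell; grey, not past the threshold), and crosses are the values under total count scaling, where 23 of the 38 members change sign against TMM.

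The alpha ring forms the outer rings of the core and its gate. With TMM scaling 3 of its 7 tested genes rose (42.9%) and none fell, where 18.9% of all tested genes rose and 21.0% fell. The median log2 fold change was 0.23 (-0.04 with total count scaling). Psma5 (ENSMUSG00000068749, GRCm38 chromosome 3, 108256926 to 108279974) was at 28.7, 32.3, 31.9, 36.3 and 33.6 CPM in saline replicates 1 to 5 and at 65.3, 52.0, 54.8, 46.9 and 41.6 CPM in LPS replicates 1 to 5. Without overlap between the groups, LPS replicate 1 was the highest library and LPS replicate 5 the lowest of the LPS group. Psma5 rose 1.60-fold, a log2 fold change of 0.68 ± 0.12 (SE, n = 5 per group, edgeR adjusted p = 0.000364).

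Psma3 (ENSMUSG00000060073, chromosome 12, 70974621 to 70996347) was at 45.8, 60.9, 57.9, 55.6 and 59.2 CPM in saline and at 72.4, 82.9, 82.7, 95.3 and 75.8 CPM in LPS libraries. Every LPS library lay above every saline library, with saline replicate 1 the lowest and LPS replicate 4 the highest. Psma3 rose 1.46-fold (log2 0.55 ± 0.10 SE, edgeR adjusted p = 0.000627). On the opposite strand it overlaps 3110056K07Rik, which has 435 reads in all against 10622 of Psma3, and it is not stated if counting was by strand.

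Psma4 (ENSMUSG00000032301, chromosome 9, 54950790 to 54958030) was at 71.6, 79.3, 80.8, 76.2 and 80.0 CPM in saline and at 102, 90.1, 87.4, 92.8 and 82.2 CPM in LPS libraries. There was no overlap, but the lowest LPS library, replicate 5, lay close to the highest saline library. The log2 fold change was 0.23 ± 0.08 (SE, edgeR adjusted p = 0.0399), and the call was lost in 4 of the 10 fits without 1 library, those that left out LPS replicate 1 or saline replicate 1, 3 or 4. Psma1, Psma2, Psma6 and Psma7 had log2 fold changes between 0.13 and 0.25 and did not pass the threshold. Without LPS replicate 5, Psma2, Psma6 and Psma7 passed too, and 6 alpha ring genes rose.

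The beta ring holds the proteolytic chamber. With TMM scaling 3 of 7 tested genes rose (42.9%) and none fell, where 18.9% of all tested genes rose and 21.0% fell. The median log2 fold change was 0.19 (-0.09 with total count scaling, under which none rose and Psmb1 fell). Psmb4 (ENSMUSG00000005779, chromosome 3, 94884093 to 94886961), a beta subunit without proteolytic activity, was at 80.1, 90.3, 91.0, 87.5 and 82.5 CPM in saline and at 129.8, 115, 124, 116 and 81.2 CPM in LPS libraries. LPS replicates 1 to 4 lay above all saline libraries, and LPS replicate 5 lay among them. Psmb4 rose 1.31-fold (log2 0.39 ± 0.11 SE, edgeR adjusted p = 0.0140), and the log2 value was 0.50 without LPS replicate 5.

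Psmb7 (ENSMUSG00000026750, chromosome 2, 38588036 to 38644087), the subunit with trypsin-like activity, was at 59.2, 55.5, 61.6, 60.5 and 62.4 CPM in saline and at 90.3, 70.4, 77.3, 77.8 and 56.1 CPM in LPS libraries. The log2 fold change was 0.31 ± 0.11 (SE, edgeR adjusted p = 0.0348). Again 4 LPS libraries lay above the saline range and LPS replicate 5 inside it. The call was lost in 7 of the 10 fits without 1 library, holding when saline replicate 5 or LPS replicate 2 or 5 was left out, and Nek6 overlaps Psmb7 on the opposite strand with 2015 reads against 10517.

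Psmb2 (ENSMUSG00000028837, chromosome 4, 126677630 to 126709714), another subunit without proteolytic activity, was at 57.9, 58.1, 63.8, 58.9 and 57.4 CPM in saline and at 78.5, 75.7, 79.2, 75.0 and 58.2 CPM in LPS libraries. LPS replicates 1 to 4 formed a narrow group above saline, and LPS replicate 5 was at the saline level. Psmb2 rose 1.24-fold (log2 0.31 ± 0.09 SE, edgeR adjusted p = 0.0171; 0.39 without LPS replicate 5).

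The remaining catalytic subunits did not pass the threshold. Psmb5, with chymotrypsin-like activity, had a log2 fold change of 0.19 (edgeR adjusted p = 0.251), and it passed without LPS replicate 5, at 0.29 (edgeR adjusted p = 0.0235). Psmb6, with caspase-like activity, had 0.05, Psmb3 had 0.09 and Psmb1 had -0.07. LPS replicate 5 was the lowest LPS library in 13 of the 14 core genes tested, in 1 of the 6 base ATPases and in 3 of the 8 lid genes. The median of its log2 deviation from the other LPS libraries was -0.36 in the alpha ring, -0.57 in the beta ring, -0.05 in the base ATPases and -0.08 in the lid. Summed over the ring, the beta genes held 388 CPM in LPS replicate 5 and between 505 and 618 CPM in the other LPS libraries, against 435 to 499 CPM in saline libraries.

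The base contains the ring of ATPases that unfolds substrates. With TMM scaling 1 of 6 ATPase genes rose (16.7%), a share close to the 18.9% of all tested genes that rose. Their median log2 fold change of 0.11 was the lowest among the structural roles (-0.16 with total count scaling, under which Psmc1 fell). Psmc4 (ENSMUSG00000030603, chromosome 7, 28041707 to 28050101) was at 49.4, 48.3, 48.2, 44.6 and 50.3 CPM in saline and at 52.7, 53.6, 63.3, 56.4 and 55.1 CPM in LPS libraries. The groups did not overlap, though LPS replicate 1 lay close to saline replicate 5. The log2 fold change was 0.22 ± 0.08 (SE, edgeR adjusted p = 0.0397), and the call did not hold when saline replicate 2, 3 or 4 or LPS replicate 3 was left out. The other 5 ATPase genes had log2 fold changes between -0.02 (Psmc1) and 0.15 (Psmc6). Psmc2, at 0.13 with an edgeR adjusted p of 0.169, also had no overlap between the groups.

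Psmd1 and Psmd2 are the large scaffold subunits of the base, and Psmd4 is a ubiquitin receptor. Psmd2 (ENSMUSG00000006998, chromosome 16, 20651652 to 20663414) was at 167, 167, 179, 167 and 185 CPM in saline and at 199.9, 209, 221, 204 and 196 CPM in LPS libraries. The groups did not overlap, with saline replicate 5 the highest of its group. Psmd2 rose 1.19-fold (log2 0.25 ± 0.08 SE, edgeR adjusted p = 0.0181; 0.0528 without saline replicate 4; log2 -0.02 with total count scaling). Psmd1 had a log2 fold change of 0.19 and Psmd4 of 0.09, neither past the threshold. Psmd1 passed without saline replicate 5, at 0.27 (edgeR adjusted p = 0.0366).

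The lid is the part of the regulatory particle that cuts ubiquitin chains from substrates. With TMM scaling 4 of its 8 genes rose (50%) and none fell, where 18.9% of all tested genes rose and 21.0% fell. The median log2 fold change was 0.19 (-0.08 with total count scaling, under which none rose). Psmd11 (ENSMUSG00000017428, chromosome 11, 80428615 to 80473248), a scaffold subunit, was at 60.0, 58.9, 63.5, 62.9 and 70.0 CPM in saline and at 74.9, 84.7, 83.2, 88.2 and 89.5 CPM in LPS libraries. Saline and LPS libraries did not overlap, saline replicate 5 was the highest saline library, and here LPS replicate 5 was the highest of all. Psmd11 rose 1.33-fold (log2 0.42 ± 0.08 SE, edgeR adjusted p = 0.00120).

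Psmd7 (ENSMUSG00000039067, chromosome 8, 107580381 to 107588464), the partner of the deubiquitinase, was at 85.1, 96.3, 91.3, 95.8 and 112 CPM in saline and at 128, 118, 135, 132 and 113 CPM in LPS libraries. The groups met almost without a gap, at saline replicate 5 and LPS replicate 5. Psmd7 rose 1.30-fold (log2 0.38 ± 0.09 SE, edgeR adjusted p = 0.00493). Psmd6 (ENSMUSG00000021737, chromosome 14, 14112174 to 14120984), another scaffold subunit, was at 56.4, 61.3, 58.3, 60.2 and 62.3 CPM in saline and at 71.7, 69.9, 71.0, 84.0 and 72.4 CPM in LPS libraries. All LPS libraries were higher, LPS replicate 4 by the most. Psmd6 rose 1.24-fold (log2 0.31 ± 0.08 SE, edgeR adjusted p = 0.00726).

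Psmd14, the deubiquitinase of the lid, rose with a log2 fold change of 0.24 (edgeR adjusted p = 0.0302), from between 36.1 and 40.6 CPM in saline to between 42.3 and 52.0 CPM in LPS libraries. The call did not hold when saline replicate 1, 3 or 5 or LPS replicate 4 was left out. Psmd3, Psmd8, Psmd12 and Psmd13 had log2 fold changes between 0.07 and 0.14 and did not pass. Sums of CPM depend on the TMM scaling and were described without a test. The lid held 567 ± 22.7 CPM in saline and 660 ± 34.2 CPM in LPS libraries, and the base ATPases 544 ± 21.6 and 582 ± 18.4 CPM (SD, n = 5 per group).

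Psmd5, Psmd9 and Psmd10 are not parts of the finished particle but chaperones that hold base subunits during assembly. Psmd5 (ENSMUSG00000026869, chromosome 2, 34849734 to 34874968) was at 19.0, 17.5, 19.6, 21.8 and 17.5 CPM in saline and at 11.4, 12.4, 16.7, 14.3 and 14.4 CPM in LPS libraries. Every LPS library lay below every saline library. It was the single member that fell, to 0.726 times the saline level (log2 -0.46 ± 0.12 SE, edgeR adjusted p = 0.00727), and it fell under all scalings. Psmd9 had a log2 fold change of -0.20 (edgeR adjusted p = 0.170), with 4 of 5 LPS libraries below all saline libraries, and it passed as falling with upper quartile and total count scaling. Psmd10 had 0.19 and did not pass.

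Of the activators, Psme1 and Psme2 encode the alternating subunits of the interferon-inducible cap known from antigen processing. Psme3 encodes a nuclear cap, and Psme4 a large single-chain cap. With TMM scaling 3 of 4 rose (75%), where 18.9% of all tested genes rose. Their median log2 fold change was 0.58 (0.31 with total count scaling, under which Psme1 and Psme2 rose). The 4 genes together held 461, 490, 482, 502 and 633 CPM in saline replicates 1 to 5 and 671, 719, 639, 770.2 and 688 CPM in LPS replicates 1 to 5. Saline replicate 5 came within a few CPM of LPS replicate 3.

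Psme1 (ENSMUSG00000022216, chromosome 14, 55578123 to 55581529) was at 95.6, 119, 101, 106 and 139.6 CPM in saline and at 199.0, 193, 187, 213 and 157 CPM in LPS libraries. The groups did not overlap, and replicate 5 was the highest saline and the lowest LPS library. Psme1 rose 1.69-fold (log2 0.76 ± 0.12 SE, edgeR adjusted p = 0.000151), and the log2 value was 0.85 without saline replicate 5. It shares 14 bp with Emc9 on the opposite strand, which had 2161 reads against 23108.

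Psme2 (ENSMUSG00000079197, chromosome 14, 55587441 to 55591113), the next member along the chromosome on the other strand, was at 20.1, 39.9, 26.6, 27.6 and 41.9 CPM in saline and at 86.2, 48.1, 71.6, 67.5 and 66.7 CPM in LPS libraries. All LPS libraries were above saline, LPS replicate 2 by a small margin, and saline replicates 2 and 5 were the high ones. Psme2 rose 2.18-fold (log2 1.12 ± 0.21 SE, edgeR adjusted p = 0.00123), the largest log2 fold change among the members.

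The value of Psme2 is uncertain because a near-identical copy, Psme2b (chromosome 11, 48945354 to 48946190), is counted as a gene of its own. The transcripts were identical at 789 of 794 aligned positions (99.4%), so reads may have been divided between them. Psme2b was at 14.3, 17.2, 13.3, 12.1 and 23.1 CPM in saline and at 60.8, 61.5, 37.2, 43.5 and 36.1 CPM in LPS libraries, without overlap, and it rose with a log2 fold change of 1.58 ± 0.21 (SE, edgeR adjusted p = 0.000102). Summed, the 2 genes went from 47.2 ± 13.1 to 115.8 ± 17.7 CPM (SD, n = 5 per group). LPS replicate 1 stood apart in the sum, at 147 CPM, and LPS replicates 2 to 5 lay between 103 and 111 CPM. Psme2 alone spread from 48.1 to 71.6 CPM in LPS replicates 2 to 5, and was at 68.0 ± 13.6 CPM over the whole LPS group (SD, n = 5). How reads were divided was not tested. The log2 ratio of the group means of the sum was 1.29.

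Psme3 (ENSMUSG00000078652, chromosome 11, 101316213 to 101323537) was at 53.7, 50.3, 51.8, 52.8 and 60.4 CPM in saline and at 59.3, 69.0, 86.1, 69.3 and 72.8 CPM in LPS libraries. Saline replicate 5 overlapped LPS replicate 1, and the other LPS libraries were higher than all saline libraries. Psme3 rose 1.33-fold (log2 0.41 ± 0.10 SE, edgeR adjusted p = 0.00512) with TMM scaling, but did not pass with upper quartile or total count scaling.

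Psme4 (ENSMUSG00000040850, chromosome 11, 30771726 to 30880361) was at 292, 279.8, 302, 316 and 392 CPM in saline and at 327, 409.6, 295, 421 and 391 CPM in LPS libraries. The groups overlapped widely, with saline replicate 5 at the LPS level and LPS replicate 3 at the saline level. The log2 fold change of 0.22 ± 0.12 did not pass (SE, edgeR adjusted p = 0.166). Without saline replicate 5 it was 0.31 and passed (edgeR adjusted p = 0.0336), and it also passed without LPS replicate 3.

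**Figure D4:**
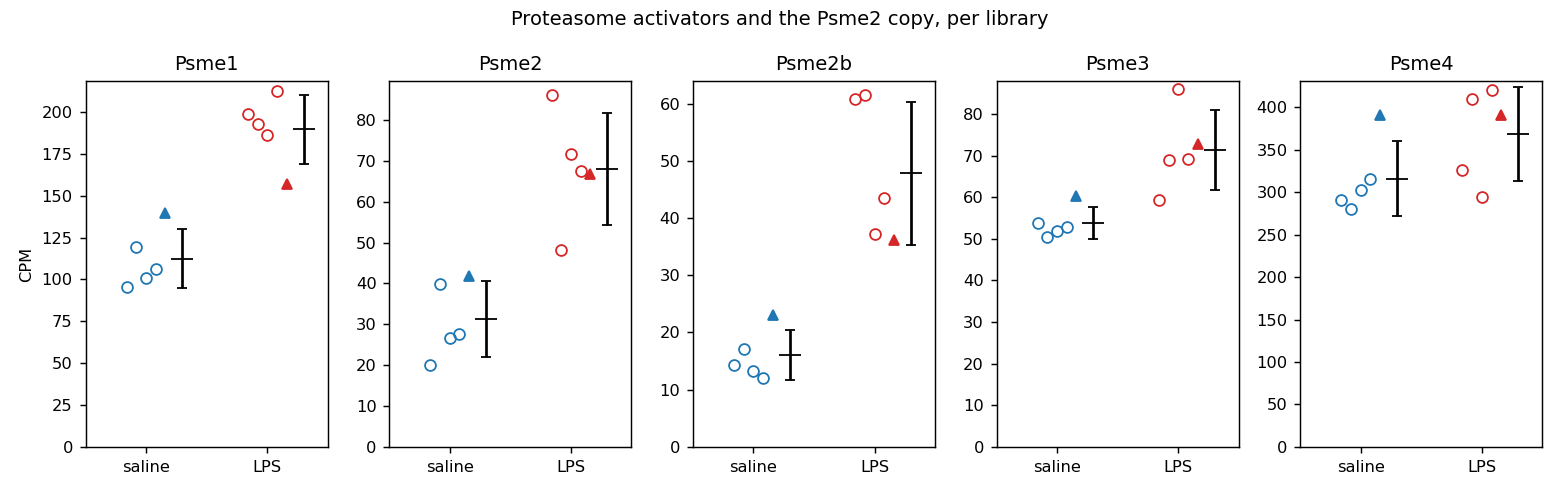
CPM (y axis, from 0, TMM scaling) of the 4 activators and of Psme2b in saline (blue) and LPS (red) libraries. Points are libraries in the order of their numbers, with triangles for replicate 5, and bars give the mean and SD. Psme1, Psme2 and Psme2b do not overlap between the groups, while saline 5 reaches the LPS range in Psme3 and Psme4.

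Ratios between genes of the same library need no scaling between libraries. A trend with transcript length does not cancel where the 2 genes differ in length. Median lengths are 711 bp in Psme1 and 2664 bp in Psme3, and 1628 bp in Psmb8 and 760.5 bp in Psmb5. Psme1 over Psme3 was 3.35, 2.79, 2.17, 3.07 and 2.16 in LPS replicates 1 to 5. The part of transcript length in the ratios was not tested. For 9 pairs the log2 ratio of counts was compared by an exact permutation test over 252 assignments of the libraries, two-sided. Its smallest possible p is 0.00794, and p-values were adjusted over the 9 pairs. The pairs were chosen with earlier results of these data known, so these p-values are a description. Psme2 over Psme3 was 0.375, 0.793, 0.515, 0.522 and 0.694 in saline and 1.45, 0.697, 0.832, 0.974 and 0.916 in LPS libraries. LPS replicate 2 fell within the saline range and the other LPS libraries were above it. The log2 difference was 0.75 (exact p = 0.0159, adjusted p = 0.0238), and the adjusted p was 0.0595 without LPS replicate 1. Psme1 over Psme3 differed by 0.36 (exact p = 0.0556, adjusted p = 0.0714), which passed without LPS replicate 5 (adjusted exact p = 0.0408). Psme1 over Psme2 differed by -0.39 (exact p = 0.0794, adjusted p = 0.0893; 0.0306 without LPS replicate 2), and reads of Psme2b are not in it. Psme4 over Psme3 differed by -0.18 (exact p = 0.325), and by -0.033 without LPS replicate 3.

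A lid gene and a base gene were also set against a core gene, which compares these genes and not the roles they belong to. The medians of the log2 fold changes were close, at 0.19 in the lid and 0.22 over both core rings, and roles were not compared by a test. Psmd14 over Psma3 was 0.789, 0.661, 0.700, 0.730 and 0.643 in saline and 0.584, 0.567, 0.559, 0.546 and 0.583 in LPS libraries. All LPS libraries were below all saline libraries, with a log2 difference of -0.31 (exact p = 0.00794, adjusted p = 0.0143). Psmc4 over Psma3 was between 0.793 and 1.08 in saline and between 0.592 and 0.765 in LPS libraries, again without overlap (log2 difference -0.33, exact p = 0.00794, adjusted p = 0.0143). Both ratios share Psma3, the core gene with the second largest log2 fold change, so they are not independent of each other. Their sign follows from the choice of pair, since the log2 fold change was 0.55 in Psma3, 0.24 in Psmd14 and 0.22 in Psmc4. Over the core genes it ran from -0.07 to 0.68, so another core gene could give another sign.

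The constitutive catalytic subunits stood against their cytokine-induced replacements, which take their places in newly made core particles. Psmb8 over Psmb5 was 0.188, 0.404, 0.217, 0.200 and 0.721 in saline and 1.47, 1.64, 1.18, 1.42 and 1.70 in LPS libraries. The groups of ratios stood apart, with saline replicate 5 the closest to LPS. Since the genes differ in length, a ratio of counts does not give which is higher: per length, the authors' deposited FPKM put Psmb8 at 6.57 ± 4.31 and Psmb5 at 57.8 ± 2.85 in saline and at 32.1 ± 4.39 and 67.1 ± 12.7 in LPS hearts (SD, n = 5), with Psmb5 the higher in both. The log2 difference was 2.30 (exact p = 0.00794, adjusted p = 0.0143). For Psmb10 over Psmb7 it was 1.42 and for Psmb9 over Psmb6 2.03, each without overlap and with the same exact and adjusted p. The ratio of counts of Psmb9 to Psmb6 lay between 0.0966 and 0.310 in saline and between 0.511 and 0.718 in LPS libraries. By FPKM Psmb9 was below Psmb6 in LPS hearts (12.7 against 41.8), but Psmb10 was above Psmb7 (70.8 ± 18.4 against 23.3 ± 3.85, SD, n = 5). Per kb of median transcript length Psmb10 was also above Psmb7 in LPS hearts, at 85.8 against 64.1 CPM per kb. In saline hearts their order depended on the length used (20.9 against 18.4 FPKM, 25.8 against 51.6 CPM per kb). In edgeR's test Psmb8 rose by log2 2.26 ± 0.39 (SE, adjusted p = 0.00174), Psmb9 by 1.90 ± 0.34 (adjusted p = 0.00166) and Psmb10 by 1.73 ± 0.18 (adjusted p = 8.31e-06), beside 0.19, 0.05 and 0.31 for Psmb5, Psmb6 and Psmb7.

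**Figure D5:**
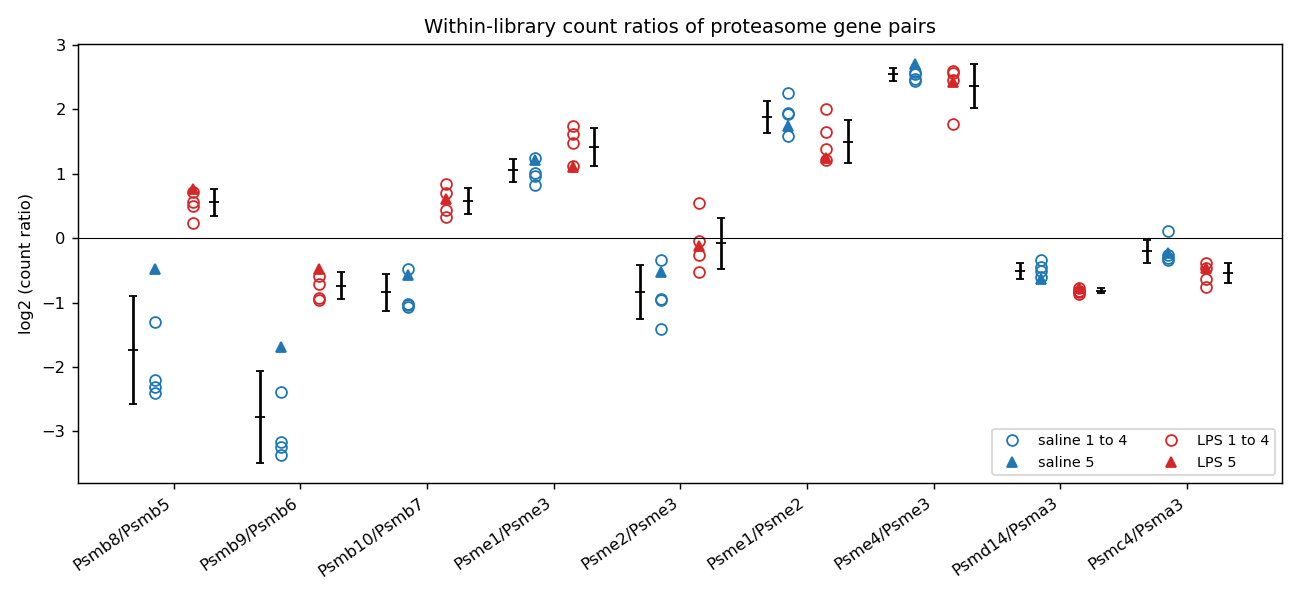
Log2 ratio of counts of 2 genes within each library (y axis) for the 9 pairs named on the x axis. Blue symbols are saline and red symbols LPS libraries, triangles mark replicate 5, and bars give the group mean and SD. The 3 pairs of induced over constitutive catalytic subunits do not overlap between the groups, and neither do Psmd14/Psma3 and Psmc4/Psma3, which are lower in LPS.

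Other genes of the pathway were taken from a list of 38, of which 37 were found and tested. With TMM scaling 11 rose and 2 fell (29.7% and 5.41%), where 18.9% of all tested genes rose and 21.0% fell. The median log2 fold change was 0.09. The rising genes include Psmb8, Psmb9 and Psmb10, and the share rising was 16.7% among assembly factors and 15.4% among genes of ubiquitin and substrate delivery. With total count scaling 6 rose and 8 fell, where 12.3% of all genes rose and 41.6% fell. Among transcriptional regulators, Nfe2l1, which encodes the factor known to drive proteasome genes when the proteasome is impaired, was at 445, 374, 387, 375 and 499 CPM in saline and at 690.5, 635, 643, 563 and 640.2 CPM in LPS libraries. No library of one group lay within the other. Nfe2l1 rose by log2 0.61 ± 0.10 (SE, edgeR adjusted p = 0.000244). Nfe2l2, a regulator of oxidative stress genes, rose by 0.76 ± 0.15 (SE, edgeR adjusted p = 0.00124), and saline replicate 5, at 110.5 CPM, lay above LPS replicate 1, at 106 CPM. Ddi2, the protease that activates the Nfe2l1 product, had a log2 fold change of 0.28 and Ngly1, which removes its sugars, -0.01, and neither passed.

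Of 6 assembly factors, Psmg4, a chaperone of the alpha ring, rose by log2 0.73 (edgeR adjusted p = 0.00606), from between 4.28 and 5.68 CPM in saline to between 5.31 and 10.4 CPM in LPS libraries. Akirin2, which brings proteasomes into the nucleus, fell by 0.24 on the log2 scale (edgeR adjusted p = 0.0366), a call lost in 7 of the 10 fits without 1 library. Pomp, which matures the core, had 0.12 and did not pass. Of 11 proteasome-associated genes, 3 rose (27.3%, where 18.9% of all tested genes rose). They were Fbxo7 by log2 0.71, Zfand5 by 0.33 and Ecpas by 0.26 (edgeR adjusted p = 0.000615, 0.0197 and 0.0475). The call of Ecpas was lost in 7 of the 10 fits without 1 library and that of Zfand5 in 1, without saline replicate 3. Neither Zfand5 nor Ecpas passed with upper quartile scaling (0.17 and 0.10) or total count scaling (0.06 and -0.01), and Psmg4 did not pass with total count scaling, at 0.46 (edgeR adjusted p = 0.0664). Fbxo7 encodes a ubiquitin ligase subunit that binds a proteasome inhibitor, and Ecpas a protein that ties core and regulatory particle together.

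Of 13 genes of ubiquitin and substrate delivery, Nploc4, a cofactor of the Vcp unfoldase, rose by log2 0.33 and Uba1, the main ubiquitin-activating enzyme, by 0.32 (edgeR adjusted p = 0.00654 and 0.0119), and in both the groups did not overlap. Ubqln2, a shuttle for ubiquitinated proteins, fell by 0.37 (edgeR adjusted p = 0.0191), a call lost in 5 of the 10 fits without 1 library. Ubb, which encodes ubiquitin, had 0.31 and Vcp itself 0.08, and neither passed. The rises of Nploc4 and Uba1 did not pass with upper quartile or total count scaling.

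Levels were compared between genes per length, with the authors' deposited FPKM and with CPM per kb of median transcript length, since deposited gene lengths can exceed those of the transcripts (2209 against 711 bp in Psme1). The order depended on the length used. By FPKM, Psma6 had the highest mean of the tested members in saline hearts, at 67.4 ± 7.25, followed by Psmc3 at 61.7 ± 3.17 and Psmc5 at 59.2 ± 3.62 FPKM (SD, n = 5), neighbours that differed by less than their spread. Psme1 stood lower, at 53.5 ± 8.55 FPKM. Per kb of transcript, Psme1 was first, at 158 ± 24.7 CPM per kb, followed by Psmc3 at 93.4 ± 4.69, Psmb6 at 88.0 ± 9.10 and Psma6 at 86.5 ± 9.14 CPM per kb, of which the latter 3 differed by less than their spread. In LPS hearts Psme1 had the highest mean by both measures, 92.1 FPKM and 267 CPM per kb.

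The chaperones Psmd5, Psmd9 and Psmd10 were the lowest of the tested members in saline by both measures. By FPKM they were at 2.78 ± 0.256, 1.96 ± 0.134 and 6.59 ± 0.820, and per kb of transcript at 4.34 ± 0.408, 5.20 ± 0.361 and 6.53 ± 0.834 CPM per kb (SD, n = 5). The order of Psmd5 and Psmd9 turned with the length used, and Psmd10 was the highest of the 3 in both. Psme4, whose CPM exceeded that of every other member in saline, had 39.7 ± 5.71 FPKM, since its transcript is long.

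Promoter sequences, 250 bases before to 50 bases after the start, were given by RefSeq (GRCm38.p6) for 33 members with 36 promoters. They were searched on both strands for the interferon-stimulated response element (ISRE), GAAA, any 2 bases and GAAA. Among bases before the start it occurred in 3 of 36 member promoters, those of Psmb3, Psmd4 and Psmd9, and in 2.98% of 32851 promoters of all genes. None of these 3 members rose with TMM scaling, where 18.9% of all tested genes rose. In the whole window it also occurred in Psme1, and in 3.44% of all promoters. The matches are shown in capitals, since they set the interferon-responsive activator beside members that did not pass:
Psme1: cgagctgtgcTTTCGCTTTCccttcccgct
Psmb3: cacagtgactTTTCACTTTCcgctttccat
Psmd4: ataaccaaccTTTCCATTTCtgtggcgcct
Psmd9: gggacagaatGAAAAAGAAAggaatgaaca
Each is read in the direction of its gene, 5′ to 3′. The match in Psme1 (chr14:55578493-55578522, plus strand) lies at bases 10 to 19 after the RefSeq start and reads on the other strand, as do those in Psmb3 (chr11:97703261-97703290, plus strand) and Psmd4 (chr3:95042675-95042704, minus strand). The match in Psmd9 (chr5:123228021-123228050, plus strand) reads along the gene.

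The core of the antioxidant response element, TGACNNNGC, the motif known to bind the products of Nfe2l1 and Nfe2l2, occurred before the start in Psmb5, Psmb6, Psmc6, Psmd12 and Psmd9, 5 of 36 promoters, and in 10.2% of all promoters. None of these members passed the threshold with TMM scaling, and Psme4, which holds a match across its start, did not pass either. Of all 38 tested members 22 did not pass, and of all tested genes 18.9% rose and 21.0% fell. A link between matches and calls was not tested. The sites of the catalytic subunits are shown:
Psmb5: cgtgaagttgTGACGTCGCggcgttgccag
Psmb6: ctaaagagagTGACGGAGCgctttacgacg
The site of Psmb5 is at chr14:54618023-54618052 on the minus strand and that of Psmb6 at chr11:70525338-70525367 on the plus strand. The gamma-activated site TTCNNNGAA occurred before the start in 0 of 36 member promoters and in 7.02% of all promoters. The CCAAT box occurred in 13 of 36 and in 33.8% of all promoters. A match describes letters only, and binding was not measured.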

How the data were processed

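RNA-seq of 10 mouse heart libraries was used, 5 per group, grouped by the labels. The authors deposited raw read counts per gene and FPKM (reads scaled to gene length and library size) in the same table. Bowtie 0.12.2 and mm9 are named in the submitters' processing notes. Counting tool, annotation and use of strand: not given in the sources used here. Coordinates of 39 of the 40 members equalled those of GENCODE M21, so they are given as GRCm38. In other tables, 20 columns of per-sample values were not used, and their LPS columns are named for 3 h where the labels and the count table give 24 h.

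Counts were analysed with edgeR 4.0.16 in R 4.3.3: filterByExpr with its defaults (minimum count 10, minimum total count 15), which left 13864 genes, TMM scaling, the quasi-likelihood F-test with robust dispersions, and Benjamini-Hochberg adjustment over all tested genes, with a threshold of 0.05. Only genes past it are said to rise or fall. SEs were derived from the F statistic. CPM are counts over total count times TMM factor, which was 1.00 to 1.15 in saline and 0.829 to 0.958 in LPS libraries. Ratios within a library had 0.5 read added to each count. FPKM entered no test. Library totals ran from 14607969 to 17012372 counts, and 1 CPM was therefore more than 10 reads.

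On simulated data with 13864 genes, 50 genes at each fold, the test found 21 of those changed 1.5-fold, 38 of the 2-fold, 47 of the 4-fold and 45 of the 8-fold ones. There were 10 false calls among 161.

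The alternatives tried were scaling by RLE, the upper quartile or the total count, no filter, 1 CPM in 5 libraries, DESeq2 1.42.0, limma 3.58.1 voom, the replicate number as a block and each library left out. Added after seeing the data were scaling without mitochondrially encoded genes, the sum of Psme2 and Psme2b, levels per kb of median transcript length and the whole promoter window. The members, gene lists and pairs were chosen with earlier results of these data known. Values in every library are given for up to 3 members per role with the largest log2 fold change past the threshold and for the 4 activators. Paaf1 of the pathway list was not matched. One gene of that list is not reported here by value.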

Additional observations from a re-analysis of the deposited data

Results flagged for a closer look

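In 94 groups of 5 libraries (the tested members and pairs, each in saline and in LPS) the gap of the highest or lowest library to its nearest neighbour was compared with the group's range, and 9 groups had a library that stood apart by Dixon's criterion. Chance flags about 1 in 20 groups. Saline replicate 1 was low in Psma1, at 78.0 CPM against 92.8 CPM in the next library, and in Psma6, at 64.5 against 80.4 CPM. Median transcript lengths are 1080.5 bp in Psma1 and 914.5 bp in Psma6. In their length classes the median log2 deviation of saline replicate 1 was -0.06 and -0.14. The part of length in these flags was not tested. The log2 ratio of Psmc4 to Psma3 was high in saline replicate 1, at 0.11 against -0.23. Psmb2 had a high saline replicate 3, at 63.8 CPM, and a low LPS replicate 5, at 58.2 CPM against 75.0 CPM in the next LPS library. Saline replicate 5 was high in Psmd1, at 135 CPM against 110.1 CPM, and Psmd1 passed the threshold without it. LPS replicate 4 was high in Psmd6, at 84.0 CPM against 72.4 CPM. LPS replicate 3 was high in Psmd9, at 13.9 CPM against 11.6 CPM, and low in the log2 ratio of Psme4 to Psme3, at 1.77 against 2.42 in the next library.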

How the results depend on the processing

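The calls depended mainly on scaling, whose cause was not tested. With upper quartile scaling 4407 genes fell (2916 with TMM). Among the members 6 rose and 2 fell, with 0 rising in the beta ring, 0 in the base ATPases, 0 in the other base genes and 2 in the lid, and 2 chaperones falling. With total count scaling 1711 genes rose and 5774 fell (2617 and 2916 with TMM). Among the members 4 rose and 4 fell, with 0 rising in the beta ring, base and lid, and with 1 falling in the beta ring, 1 among the base ATPases and 2 among the chaperones. RLE scaling gave 16 rising and 1 falling member (20.4% and 19.9% of all genes rose and fell), DESeq2 17 and 1 with 2 rising base ATPases (21.5% and 21.0%), limma voom 15 and 1 (19.2% and 21.3%), a filter of 1 CPM 15 and 1 (19.2% and 21.4%), and scaling without mitochondrially encoded genes 15 and 1 (20.2% rose). Without a filter 26214 genes were tested, of which 10.8% rose and 11.5% fell, 11 members rose and 1 fell, and 0 rose among the base ATPases and 0 among the other base genes. The 16 called members were called by edgeR, DESeq2 and limma alike.

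Members with a value above 0 under TMM were below 0 with upper quartile scaling in 12 cases, none past the threshold: Psma1 -0.033, Psmb3 -0.065, Psmb6 -0.10, Psmc2 -0.023, Psmc3 -0.088, Psmc5 -0.071, Psmc6 -0.0021, Psmd4 -0.066, Psmd3 -0.022, Psmd8 -0.072, Psmd12 -0.088 and Psmd13 -0.053. With total count scaling 23 were below 0, none past the threshold. They were -0.15 for Psma1, -0.022 for Psma2, -0.044 for Psma4, -0.060 for Psma6, -0.059 for Psma7, -0.18 for Psmb3, -0.087 for Psmb5, -0.22 for Psmb6, -0.14 for Psmc2, -0.20 for Psmc3, -0.050 for Psmc4, -0.19 for Psmc5 and -0.12 for Psmc6. In the base scaffold, lid, chaperones and activators they were -0.075 for Psmd1, -0.019 for Psmd2, -0.18 for Psmd4, -0.14 for Psmd3, -0.19 for Psmd8, -0.20 for Psmd12, -0.17 for Psmd13, -0.033 for Psmd14, -0.080 for Psmd10 and -0.053 for Psme4. Ecpas was at -0.014. Psmc1, at -0.02 under TMM, was at 0.0018 with RLE scaling and 0.0026 with DESeq2.

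In fits without 1 library the number of rising genes ran from 2277 to 2967 and of falling genes from 2355 to 3241. The number of rising members ran from 11 to 19, in the alpha ring from 2 to 6, in the beta ring from 2 to 4, in the base ATPases from 0 to 1, in the other base genes from 0 to 2, in the lid from 3 to 4 and in the activators from 3 to 4. The falling member was Psmd5 in each. Log2 fold changes near 0 crossed it in Psmb1 (-0.11 to 0.048, above 0 without LPS replicate 5), Psmb3 (-0.0035 to 0.20, below 0 without LPS replicate 1) and Psmc1 (-0.060 to 0.028). The difference in the log2 ratio ran from 0.60 to 0.88 for Psme2 over Psme3, from 0.28 to 0.44 for Psme1 over Psme3, from -0.52 to -0.30 for Psme1 over Psme2 and from -0.24 to -0.033 for Psme4 over Psme3.

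Replicate numbers are not said to pair the libraries, and the correlations of same-numbered deviations were low, between -0.07 and 0.18. Low correlations cannot exclude a pairing. With the replicate block 12 members rose and 1 fell, with 0 rising base ATPases, and 2582 and 2836 of all genes (18.6% and 20.5%). For the ratios, a paired permutation test of the mean log2 difference flipped the signs of the differences in all 32 patterns. It cannot go below an exact p of 0.0625, so with this pairing no ratio could pass. The differences were those of the unpaired test (2.30 for Psmb8/Psmb5, 2.03 for Psmb9/Psmb6, 1.42 for Psmb10/Psmb7, 0.75 for Psme2/Psme3, -0.31 for Psmd14/Psma3 and -0.33 for Psmc4/Psma3), with adjusted exact p of 0.1125, and 0.161 for Psme2/Psme3.

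Psma8 had too few reads to pass the filter of the main fit, and Psmb11 had 0 reads in all libraries. Psma2 overlaps AW209491, Psmc3 overlaps Slc39a13, and Psmd13 overlaps Sirt3 and Gm15542, and their reads cannot be told apart where counting ignored the strand or the strand is shared.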
